A study of Arabidopsis thaliana with 14 samples.

Results

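The transcripts described here come from the chloroplast and mitochondrial genomes of Arabidopsis thaliana. Every gene that the count tables place on the chloroplast chromosome (Pt) or the mitochondrial chromosome (Mt) was taken, which gave 279 of 33602 genes, 133 on Pt and 146 on Mt. Genes with a summed count of at least 50 over the 14 libraries were tested, which left 75 Pt and 28 Mt genes. A further 25 Pt and 39 Mt genes had 1 to 49 counts in all, and 33 Pt and 79 Mt genes had no count in any library.

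The study overexpressed WRKY75, a WRKY-family transcription factor, under estradiol control, and sequenced RNA of whole rosettes from plants 3 weeks old, harvested 3 hours after spraying. Wild-type Col-0 was sprayed with water and 0.001% Silwet-L77 (Col-0 water, 3 libraries) or with 50 µM estradiol in 0.001% Silwet-L77 (Col-0 estradiol, 3 libraries). The inducible WRKY75 lines N2102362 and N2102363, 4 libraries each, received the same estradiol spray. Each library pooled 5 rosettes, and the plants grew with 12 h of light a day, at 22 °C in the light and 19 °C in the dark. Line plants without estradiol were not analysed here, so line and induction cannot be told apart, and both lines are set against the same Col-0 estradiol libraries.

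Chloroplast genes are transcribed by a bacterial-type polymerase, whose core subunits are encoded by the chloroplast genes rpoA, rpoB, rpoC1 and rpoC2 and whose sigma factors are encoded in the nucleus, and by a phage-type polymerase encoded in the nucleus. Photosynthesis genes depend mainly on the bacterial-type enzyme, and the rpoB transcription unit is read by the phage-type enzyme. Mitochondrial genes are transcribed by phage-type polymerases from the nucleus. Organelle transcripts mostly lack the stable poly(A) tail of nuclear mRNA, and in both organelles added tails mark RNA for decay. The library kit named in the labels selects RNA by its poly(A) tail, so the counts are those of the organelle RNA that entered such libraries.

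Library totals ran from 20456036 to 22605970 counts. WRKY75 itself stood at 0.430 to 1.25 CPM (counts scaled to a common library size with TMM factors) in Col-0 water and 0.628 to 2.69 in Col-0 estradiol, against 28.2 to 81.9 in N2102362 and 76.4 to 166.8 in N2102363. The 4 leaf markers RBCS1A, RCA, LHCB1.3 and CA1 summed to 14320 to 37017 CPM over the groups, and none was at 0. Of the 4 root markers 1 was at 0 in every library, and of the 4 flower markers and 4 markers of dividing cells none was. A pattern common to the numbered replicates stands beside the results: in all 4 groups the library numbered 2 had the lowest chloroplast share.

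Chloroplast genes with a second copy in the chloroplast genome had next to no counts. The chloroplast genome carries a large inverted repeat, so the genes in it occur in 2 copies. Of the 37 Pt genes with a second chloroplast copy of at least 95% identity, 31 had no count in any library, none reached 50 counts, and their counts summed to 28 over all 14 libraries. Of the 89 Pt genes with no such copy, 1 had no count and 73 reached 50, with 100702 counts in all. The 7 genes with a nuclear copy only summed to 974 counts, of which atpI, a subunit of the ATP synthase, held 744 and the ribosomal protein gene rps2 187. At 98% identity the 37 genes were the same number, and atpI and rps2 were among the genes with no copy. The copies of the 16S ribosomal RNA gene are identical over all 1491 bases, and their first 60 bases are printed on the gene strand to show that a read from here has no single place (RefSeq chloroplast genome, Pt:101012-101071 on the plus strand and Pt:137578-137637 on the minus strand).
ATCG00920: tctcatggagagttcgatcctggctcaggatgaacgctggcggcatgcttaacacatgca
ATCG01210: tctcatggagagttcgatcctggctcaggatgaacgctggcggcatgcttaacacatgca
ATCG00920 had 4 counts and ATCG01210 had 3 over the 14 libraries. These tables thus hold almost no counts for chloroplast ribosomal RNA, which makes up much of the RNA of a leaf, and 0 for both copies of ndhB and ycf2, which lie in the repeat. How the counting treated reads with several places is not stated in the labels. Many genes of the repeat are ribosomal or transfer RNA genes, and only 5 transfer RNA genes of the whole chloroplast genome reached 50 counts. The parts of gene class and of the second copy in these low counts were not tested.

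**Figure D1:**
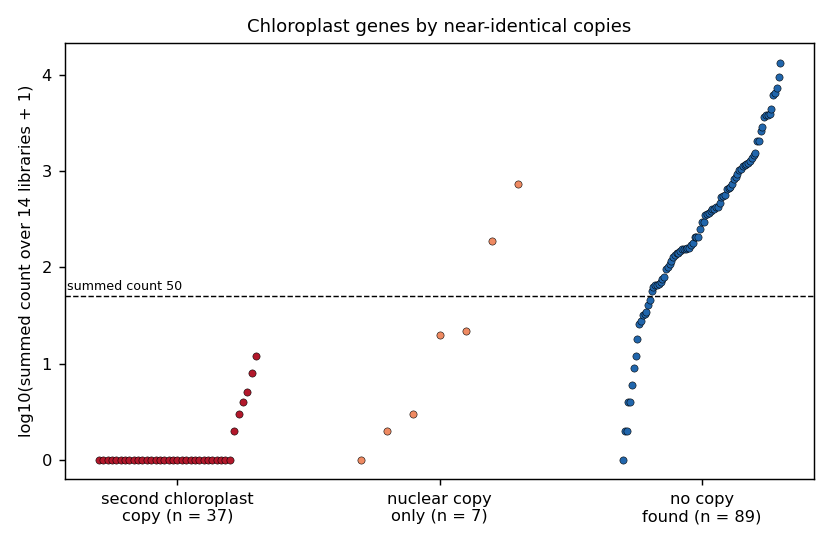
Summed count over the 14 libraries of each of the 133 chloroplast genes, as log10(count + 1), by whether a copy of at least 95% identity lies elsewhere in the chloroplast genome, only in the nuclear genome, or nowhere. Each point is a gene, sorted by count within its column, and the dashed line marks the summed count of 50 needed for testing. No gene of the 37 with a second chloroplast copy reaches the line, and 73 of the 89 without a copy do.

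In the mitochondrial set, 53 IDs are named in the RefSeq notes of chromosome 2 genes, where a large insertion of mitochondrial DNA lies. Of these 53, 33 had no count and 5 reached 50. Of the other 93, 46 had no count and 23 reached 50. The sources used here pair few of the tested mitochondrial IDs with names: ATMG00410 is noted as ATPase subunit 6-1, ATMG00730 as cytochrome c oxidase subunit 3, ATMG01080 as subunit 9 of the F0 part of the mitochondrial ATPase and ATMG01320 as NADH dehydrogenase 2B. These 4 also have a noted nuclear copy, so their counts are uncertain. A note is not a search for copies, and genes without one may have copies too. By blastn, 25 of 33 RefSeq mitochondrial protein genes had a chromosome 2 copy of at least 95% identity. The other mitochondrial genes are given by ID.

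Levels were compared between genes as CPM per kilobase of gene span, averaged over the 14 libraries. Among the tested chloroplast genes the highest levels were those of psaJ, a small subunit of photosystem I, at 96.5 CPM per kb and of rpl32, a protein of the large ribosomal subunit, at 78.3. The gene for the D1 protein of the photosystem II reaction centre, psbA, followed at 44.0, psbI of photosystem II stood at 25.8, and the ATP synthase genes atpE and atpB at 25.2 and 22.1. psbM, another small photosystem II subunit, had 18.6 and rbcL, the large subunit of Rubisco, 17.6. Very short genes hold few read positions, so a level per kilobase is least certain for psaJ, rpl32, psbI and psbM.

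Among mitochondrial genes ATMG01390 stood at 15.0 CPM per kb, ATMG00030 at 14.3 and ATMG00020 at 12.4. All others were lower, from ATMG01080 at 4.87 and ATMG01380 at 4.69 through ATMG01370 at 4.25, ATMG00660 at 2.71 and ATMG00690 at 2.10. ATMG00020 and ATMG01390 together carried most of the mitochondrial counts: ATMG00020 took 36.9% ± 0.30 of them in Col-0 water, 36.8% ± 4.5 in Col-0 estradiol, 35.2% ± 2.4 in N2102362 and 35.9% ± 1.5 in N2102363 (SD, n = 3, 3, 4 and 4). ATMG01390 took between 29.8% and 36.8% of them in every library. The mitochondrial share, and any ratio to it, thus rests mostly on these 2 genes, whose products the names used here do not give. Whether they are protein or ribosomal RNA genes is therefore not given either. The ratio may set unlike kinds of RNA side by side.

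Reads from a stretch that chloroplast genes share, or running across neighbours, belong to no single gene. How the counting treated them is not stated in the labels. The kit does not mark strand, and 8 tested genes overlap another gene: matK lies within trnK, psbD overlaps psbC, atpB overlaps atpE, rps3 overlaps rpl22 and ndhF overlaps the shorter of the ycf1 genes. In the mitochondrial set 4 tested genes overlap another gene. The case of psbD and psbC, the D2 protein and the CP43 antenna protein of photosystem II, is printed because their shared stretch holds both reading frames (Pt:33720-33772, plus strand, 53 bases, with the first codon of psbC and the last codon of psbD in capitals).
psbD/psbC overlap: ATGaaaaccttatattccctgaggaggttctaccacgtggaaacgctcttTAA
psbN lies on the strand opposite psbT and psbH, so reads running across these neighbours cannot be assigned by strand either.

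Summed over all members, chloroplast counts were a small part of each library and were highest on average in the lines. Per library, the chloroplast share was 0.0292%, 0.0287% and 0.0324% in Col-0 water. It was 0.0339%, 0.0267% and 0.0330% in Col-0 estradiol. In N2102362 it was 0.0444%, 0.0285%, 0.0390% and 0.0405%, and in N2102363 0.0373%, 0.0336%, 0.0424% and 0.0362%. Of the 8 line libraries, 6 lay above every Col-0 library; replicate 2 of N2102362 and replicate 2 of N2102363 lay inside the Col-0 range, so the groups overlap. Between libraries of the same number, the line was above Col-0 estradiol in 6 of 6 pairs, by 0.0017 to 0.0105 percentage points. Across all genes, same-numbered deviations from the group means correlated at 0.154, 0.137 and 0.104 for N2102363 and 0.160, 0.603 and -0.112 for N2102362. Over the organelle genes the values were -0.141, 0.352 and 0.117 for N2102363 and 0.107, 0.459 and 0.029 for N2102362. Neither set settles whether the numbers pair the samples. The means were 0.0301% ± 0.0020 and 0.0312% ± 0.0039 in Col-0 with water and estradiol, and 0.0381% ± 0.0068 and 0.0374% ± 0.0037 in N2102362 and N2102363 (SD, n = 3, 3, 4 and 4). No p-value is given for these sums, because the members were chosen with earlier results known.

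Mitochondrial counts took a smaller share and lay the other way. Col-0 water had 0.00987%, 0.0116% and 0.00839%, and Col-0 estradiol had 0.0115%, 0.0110% and 0.00791%. In N2102362 the share was 0.00897%, 0.00982%, 0.00859% and 0.00644%, and in N2102363 0.00684%, 0.00892%, 0.00683% and 0.00636%. The means were 0.00996% ± 0.0016, 0.0101% ± 0.0019, 0.00846% ± 0.0014 and 0.00724% ± 0.0011 in the same order of groups, and the ranges overlap, with replicate 3 of Col-0 estradiol below 4 of the 8 line libraries. Between libraries of the same number, the line was above Col-0 estradiol in 1 of 6 pairs, replicate 3 of N2102362. The ratio of chloroplast to mitochondrial counts averaged 3.10 ± 0.71 in Col-0 water, 3.18 ± 0.90 in Col-0 estradiol, 4.67 ± 1.4 in N2102362 and 5.28 ± 1.1 in N2102363. In bulk rosettes, fewer cells of a type and less organelle RNA per cell cannot be told apart. The leaf markers overlapped between groups as well, at 14320 to 24782 CPM in Col-0 estradiol, 17716 to 37017 in N2102362 and 20718 to 32381 in N2102363, and their part in these shares was not tested. Markers of other tissues also had their highest sums in the lines. The root markers summed to 35.6 to 50.8 CPM in Col-0 water, 35.01 to 50.5 in Col-0 estradiol, 43.9 to 78.8 in N2102362 and 47.9 to 80.4 in N2102363. The flower markers summed to 1.29 to 1.45, 0.762 to 1.72, 1.26 to 2.46 and 2.03 to 4.10 CPM in the same order, so that N2102363 lay above both Col-0 groups without overlap. The markers of dividing cells summed to 17.5 to 30.2, 17.5 to 32.4, 20.1 to 56.4 and 30.5 to 50.95 CPM, with overlap. The part of these markers in the shares was not tested either.

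**Figure D2:**
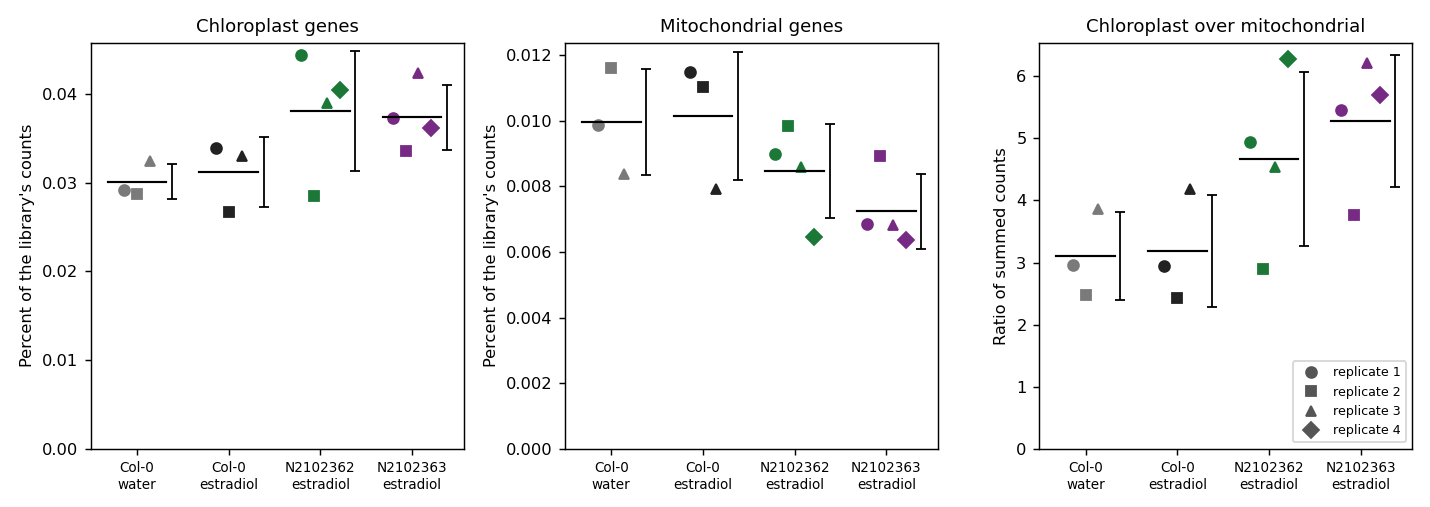
Chloroplast genes as a percent of each library's counts, mitochondrial genes as a percent of each library's counts, and the ratio of their summed counts, for the 14 libraries by group. Points are libraries with a marker for each replicate number, horizontal lines are group means and bars beside them are 1 SD. Replicate 2, the square, is the lowest chloroplast share in each group, and the lines' mean ratios, 4.67 and 5.28, lie above the Col-0 means of 3.10 and 3.18.

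Estradiol alone, compared in Col-0 against water, called no chloroplast and no mitochondrial gene at an adjusted p under 0.05 by edgeR's quasi-likelihood test (lowest adjusted p = 1.0), as for all 20449 genes tested, of which 0.0% were called. At an unadjusted p under 0.05, 1 of 75 chloroplast genes was higher, where 1.01% of all genes were, 0 were lower (0.582%), and 0 mitochondrial genes passed in either direction. DESeq2 called 0 of either genome. The median log2 fold change was 0.06 over the chloroplast genes with 50 of 75 above 0, and 0.01 over the mitochondrial genes, with 15 of 28 above 0. Over all genes it was 0, and 50.0% were above 0. The gene with the low unadjusted p was ndhE, a subunit of the chloroplast NADH dehydrogenase-like complex, picked out after its values were seen. It had 0.05002, 0.0957 and 0.143 CPM in Col-0 water and 0.475, 0.493 and 0.344 CPM in Col-0 estradiol, with 99 counts over all 14 libraries. The groups did not overlap, and the log2 fold change was 2.11 ± 0.53 (SE, unadjusted p = 0.0016, edgeR adjusted p = 1.0). With psbD, this made 2 chloroplast genes whose estradiol libraries all lay above the water libraries, or 2.67% of those tested against 2.25% of all genes. The count in the other direction was 1 (1.33% against 2.47%).

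Neither line passed the test for any organelle gene against Col-0 estradiol. By edgeR 0 chloroplast and 0 mitochondrial genes were called in N2102362 (0.0293% of all genes called), in N2102363 (0.0245%) and in the mean of the lines (0.0342%), and DESeq2 also called 0 in each. Even so, chloroplast fold changes lay mostly above 0. In N2102362, 63 of 75 had a log2 fold change above 0 with a median of 0.28, in N2102363 58 of 75 with a median of 0.48, and in the mean of the lines 61 of 75 with a median of 0.34, while over all genes 50.5%, 49.1% and 49.2% were above 0. Genes of the chloroplast share their libraries and often their transcripts, so these counts are not counts of independent genes. At an unadjusted p under 0.05, 13 chloroplast genes were higher in N2102362 (2.59% of all genes), 21 in N2102363 (5.13%) and 20 in the mean of the lines (4.48%). In the other direction, 0 were lower in each (2.07%, 5.88% and 4.75% of all genes). Groups did not overlap, with the line higher, in 10 chloroplast genes for N2102362 (2.97% of all genes) and in 22 for N2102363 (5.62%).

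Those counts at an unadjusted p rested on single libraries, and the share of all genes moved as well, given in parentheses. In the mean of the lines the count was 12 without replicate 1 of Col-0 estradiol (2.31%), 6 without replicate 2 of Col-0 estradiol (3.57%) and 31 without replicate 2 of N2102362 (6.68%). Without replicate 4 of both lines it was 13 (2.6%). For N2102362 it was 7 without replicate 2 of Col-0 estradiol (3.37%), 21 without replicate 3 of Col-0 estradiol (3.39%), 27 without replicate 2 of N2102362 (4.11%) and 8 without replicate 4 of N2102362 (1.44%). For N2102363 it was 12 without replicate 1 of Col-0 estradiol (2.83%), 6 without replicate 2 of Col-0 estradiol (3.26%) and 12 without replicate 3 of N2102363 (3.56%). When both Col-0 groups served as the reference, an alternative added after the data were seen, edgeR called psbT and petL higher (2 of 75, against 0.24% of all genes called higher and 0.362% lower), with adjusted p = 0.036 and 0.047. Adding the replicate number as a block raised this to 10 chloroplast genes (2.17% of all genes higher and 2.34% lower), namely psbI, psbT, petL, psaJ, cemA, rpoB, rpoC1, rpl32, rpl36 and ycf1. Leaving out replicate 4 of both lines instead gave 0 (0.0247% of all genes in each direction). No mitochondrial gene was called under these settings.

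In 8 chloroplast genes the lowest of the 8 line libraries exceeded the highest of the 3 Col-0 estradiol libraries, or 10.7% of those tested against 1.28% of all genes. They were psaJ, psbI, psbT, petL, rpl36, ndhG, ndhA and trnP, and none passed the adjusted test. Of these, 6 have a gene span under 200 bases, as do 21 of the 75 tested, and their median span was 112.5 bases against 483. Among tested nuclear genes under 200 bases (n = 79) the median log2 fold change in the mean of the lines was 0.02. Among chloroplast genes it was 0.39 under 200 bases (n = 21), 0.34 from 200 to 500 (n = 17), 0.64 from 500 to 1000 (n = 12), 0.20 from 1000 to 2000 (n = 17) and 0.74 above (n = 8), with no steady course along gene length.

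The short coding genes of this set are printed whole because their length is what a reader needs to judge their counts. Start and stop codons are in capitals, on the gene strand (RefSeq chloroplast genome, petL at Pt:65712-65807, psbT at Pt:74082-74183, psbI at Pt:7583-7693 and psaJ at Pt:66929-67063 on the plus strand, rpl36 at Pt:79489-79602 on the minus strand).
petL: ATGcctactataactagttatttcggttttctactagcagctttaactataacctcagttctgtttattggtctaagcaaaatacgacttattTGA
psbT: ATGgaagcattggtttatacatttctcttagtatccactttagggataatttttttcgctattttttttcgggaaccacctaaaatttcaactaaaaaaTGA
psbI: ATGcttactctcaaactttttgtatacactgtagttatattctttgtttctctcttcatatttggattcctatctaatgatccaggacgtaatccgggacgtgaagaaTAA
rpl36: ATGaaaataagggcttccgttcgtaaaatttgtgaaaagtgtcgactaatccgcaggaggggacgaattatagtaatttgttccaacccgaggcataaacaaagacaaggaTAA
psaJ: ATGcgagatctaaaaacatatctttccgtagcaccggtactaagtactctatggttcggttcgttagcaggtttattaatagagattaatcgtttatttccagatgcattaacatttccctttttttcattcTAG

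psbT encodes a small subunit of photosystem II. It had 0.738, 1.03 and 0.982 CPM in Col-0 estradiol and 0.700, 0.957 and 1.14 in Col-0 water. It had 2.18, 1.22, 1.55 and 2.15 CPM in N2102362 and 1.88, 2.03, 1.99 and 1.85 in N2102363. Each line library was above each of the 6 Col-0 libraries, with replicate 2 of N2102362 closest to them. The log2 fold change in the mean of the lines was 1.01 ± 0.22 (SE, edgeR adjusted p = 0.45, 8 of 8 line libraries higher).

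petL encodes a small subunit of the cytochrome b6f complex, which passes electrons between the photosystems. Its levels were 0.158, 0.179 and 0.393 CPM in Col-0 estradiol and 0.200, 0.143 and 0.428 in Col-0 water. In N2102362 they were 0.823, 0.406, 0.890 and 1.03 CPM, and in N2102363 0.614, 0.796, 0.631 and 0.600. Replicate 2 of N2102362 fell inside the range of Col-0 water and just above Col-0 estradiol, and the other 7 line libraries lay clear of both. The log2 fold change was 1.54 ± 0.40 (SE, edgeR adjusted p = 0.53) on 153 counts in all.

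rpl36, a protein of the large ribosomal subunit, had 0.264, 0.179 and 0.393 CPM in Col-0 estradiol. It had 0.484, 0.631, 0.843 and 0.872 CPM in N2102362 and 0.964, 0.442, 0.873 and 0.550 in N2102363. All line libraries were higher, the nearest being replicate 2 of N2102363, and the log2 fold change was 1.33 ± 0.41 (SE, edgeR adjusted p = 0.53). psaJ, with far more counts (3840), had 8.49, 11.4 and 11.7 CPM in Col-0 estradiol. Its line values were 13.3, 13.1, 16.2 and 15.4 CPM in N2102362 and 17.8, 14.8, 15.8 and 13.9 in N2102363. Here too the groups did not overlap, and the log2 fold change was 0.51 ± 0.14 (SE, edgeR adjusted p = 0.53). psbI had a log2 fold change of 0.60 ± 0.15 with values of 1.79 to 2.70 CPM in Col-0 estradiol and 2.92 to 3.88 in the lines (edgeR adjusted p = 0.53).

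The 3 remaining genes of this set had low counts or long spans. ndhA and ndhG encode subunits of the NADH dehydrogenase-like complex, with log2 fold changes of 0.76 ± 0.27 and 0.64 ± 0.26 (SE). trnP, the proline transfer RNA gene, had 65 counts over the 14 libraries and a log2 fold change of 1.33 ± 0.53. edgeR's adjusted p was 0.53 for ndhA and 0.54 for ndhG and trnP.

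By class, the genes of the chloroplast RNA polymerase and ribosome had higher medians than those of the photosystems. When each genome's own total set the scale, the photosystem medians lay below 0, but on that scale some genes must where others lie above it. Over all genes, 49.2% were above 0 and 4.48% were higher at an unadjusted p under 0.05. All 4 polymerase genes had a log2 fold change above 0 in the mean of the lines, with a median of 0.69, and 2 of 4 had an unadjusted p under 0.05. Of the ribosomal protein genes 14 of 16 were above 0 with a median of 0.56, and 6 had an unadjusted p under 0.05. Of the photosystem II genes 10 of 15 were above 0 with a median of 0.17, and 2 had an unadjusted p under 0.05. The median was 0.37 over 6 ATP synthase genes, 0.31 over 10 genes of the NADH dehydrogenase-like complex, 0.22 over 6 cytochrome b6f genes and 0.19 over 4 photosystem I genes. Over 5 transfer RNA genes it was 0.39, over 3 ycf genes 0.78 and over 5 others (matK, accD, cemA, clpP and ccsA) 0.72. Leaving out replicate 2 of Col-0 estradiol moved the median to 0.43 over the polymerase genes, 0.06 over photosystem II, 0.04 over photosystem I, 0.07 over cytochrome b6f, 0.20 over the ATP synthase and -0.23 over the transfer RNA genes, and to 0.54 over the ribosomal protein genes. Without replicate 3 of Col-0 estradiol the medians were 0.95 over the polymerase genes, 0.80 over the ribosomal protein genes, 0.10 over photosystem II and 1.02 over the transfer RNA genes. Without replicate 1 of Col-0 estradiol the photosystem I median was 0.35, and without replicate 1 of N2102362 the medians were 0.14 over cytochrome b6f and 0.20 over the transfer RNA genes. Differences between classes were not tested.

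**Figure D3:**
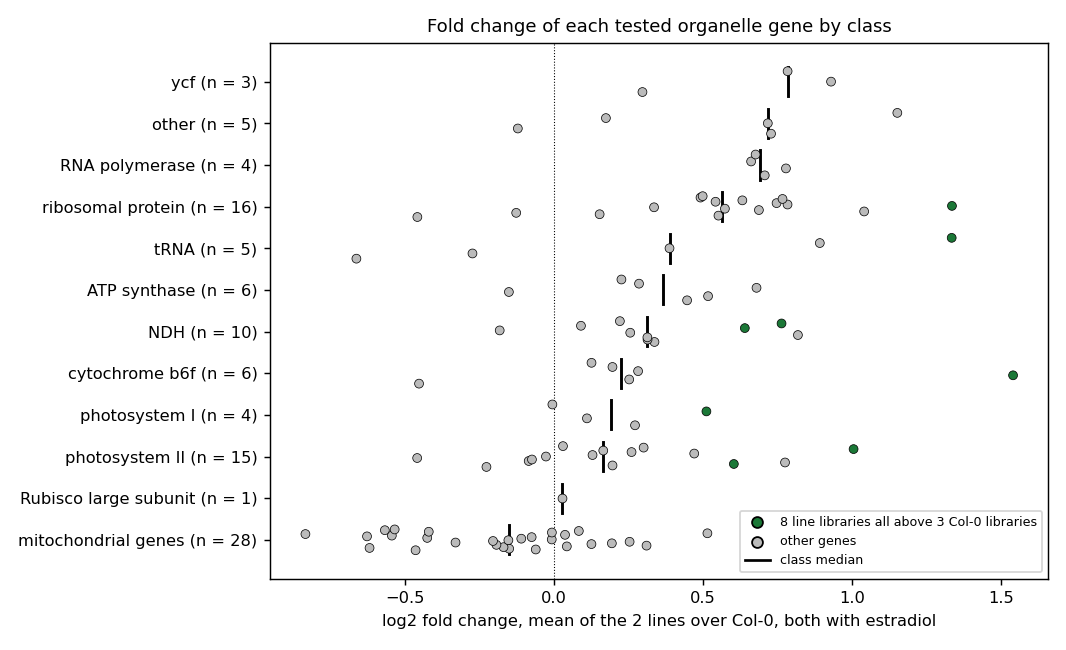
Log2 fold change of each tested organelle gene in the mean of the lines over Col-0, both with estradiol, by class. Each point is a gene, vertical bars are class medians, and green points are the 8 genes whose 8 line libraries all lay above the 3 Col-0 libraries. The polymerase genes sit between 0.66 and 0.78, the mitochondrial genes have a median of -0.15, and no gene passed the adjusted test.

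rpoB, the beta subunit of the polymerase and the first gene of its transcription unit, had 18.5, 10.1 and 23.0 CPM in Col-0 estradiol and 16.6, 11.6 and 15.99 in Col-0 water. N2102362 had 27.0, 13.2, 20.5 and 40.2 CPM and N2102363 had 28.8, 17.9, 32.95 and 38.1. The highest libraries were those numbered 4 in both lines, and the lowest in each group was the library numbered 2, so the groups overlapped. The log2 fold change was 0.66 ± 0.33 in the mean of the lines (SE, edgeR adjusted p = 0.54), and 0.43 without replicate 4 of both lines. Without replicate 2 of Col-0 estradiol it was 0.39. rpoC1 and rpoC2, which follow rpoB in the same unit, had 0.78 ± 0.28 and 0.71 ± 0.35, and rpoA, which lies in the ribosomal protein cluster, 0.68 ± 0.29 (edgeR adjusted p = 0.53, 0.54 and 0.54). rpoA stood at 0.38 without replicate 2 of Col-0 estradiol and 1.02 without replicate 3.

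The ribosomal protein cluster that ends with rpoA showed values of the same size: 0.75 ± 0.31 for rpl14, 0.54 ± 0.30 for rpl16, 0.63 ± 0.25 for rps3, 0.77 ± 0.33 for rpl22 and 0.49 ± 0.29 for rps19 (log2 fold change ± SE in the mean of the lines). Outside it, rpl33 had 1.04 ± 0.34, rpl32 0.50 ± 0.24, rps14 0.15 ± 0.20 and rps4 -0.13 ± 0.34. edgeR's adjusted p was 0.53 or higher for each. rpl32 stood at 0.33 without replicate 1 of Col-0 estradiol and 0.81 without replicate 3.

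The photosystem genes, to which psbT, psbI and psaJ belong, also include psbA and the other genes of the reaction centres. psbA had 73.6, 38.2 and 38.7 CPM in Col-0 estradiol and 56.4, 59.97 and 42.02 in Col-0 water. It had 63.1, 42.1, 48.6 and 39.9 CPM in N2102362 and 38.3, 39.9, 42.8 and 30.7 in N2102363. Replicate 1 of Col-0 estradiol was the highest library, the groups overlapped, and the log2 fold change was -0.23 ± 0.21 (SE, edgeR adjusted p = 0.67). Without replicate 1 of Col-0 estradiol it was 0.16, on the other side of 0. rbcL stood at 0.03 ± 0.24, psbB at 0.17 ± 0.14, psbC at -0.07 ± 0.16, psbD at -0.08 ± 0.14, psaA at 0.11 ± 0.17, psaB at 0.27 ± 0.15 and psaC at -0.0050 ± 0.26. psbE, which encodes a subunit of cytochrome b559, had 0.26 ± 0.20. Without replicate 2 of Col-0 estradiol, psaB stood at 0.12.

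The ATP synthase genes ranged from -0.15 ± 0.20 for atpH to 0.68 ± 0.27 for atpI, with atpA at 0.45 ± 0.23, atpB at 0.23 ± 0.21 and atpE at 0.29 ± 0.21 (log2 fold change ± SE). Of the cytochrome b6f genes, petA had 0.25 ± 0.23, petB 0.20 ± 0.18 and petD 0.13 ± 0.16. In the NADH dehydrogenase-like complex, ndhF had 0.82 ± 0.38 and ndhK 0.31 ± 0.17. The protease gene clpP had 0.17 ± 0.19, accD, a subunit of acetyl-CoA carboxylase, -0.12 ± 0.37, and the intron maturase gene matK 0.73 ± 0.28. ycf1 and ycf3 had 0.78 ± 0.28 and 0.30 ± 0.63, and cemA, an envelope membrane protein, 0.72 ± 0.23. Without replicate 2 of Col-0 estradiol, atpA stood at 0.28, atpB at 0.030 and clpP at 0.015, and without replicate 3 atpB stood at 0.34 and clpP at 0.39. The gene ccsA, which serves cytochrome c assembly, had 1.15 ± 0.62 on 74 counts.

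The composition of the chloroplast counts was also summed per library. psbA made up 17.6% ± 4.1 of chloroplast counts in Col-0 water, 15.6% ± 4.3 in Col-0 estradiol, 13.1% ± 2.8 in N2102362 and 10.1% ± 1.5 in N2102363 (SD, n = 3, 3, 4 and 4). rpoB made up 4.85% ± 0.71, 5.32% ± 1.4, 6.46% ± 2.0 and 7.77% ± 2.0. The lowest psbA part, 8.21%, and the highest rpoB part, 10.2%, were both in replicate 4 of N2102363. In replicate 4 of N2102362 the parts were 9.26% for psbA and 9.32% for rpoB. These are parts of counts, not levels per length. For psbA every N2102363 library lay below every Col-0 water library, whose lowest part was 13.2%, while N2102363 overlapped Col-0 estradiol, whose lowest was 11.5%. For rpoB the range of each line overlapped that of each Col-0 group.

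**Figure D4:**
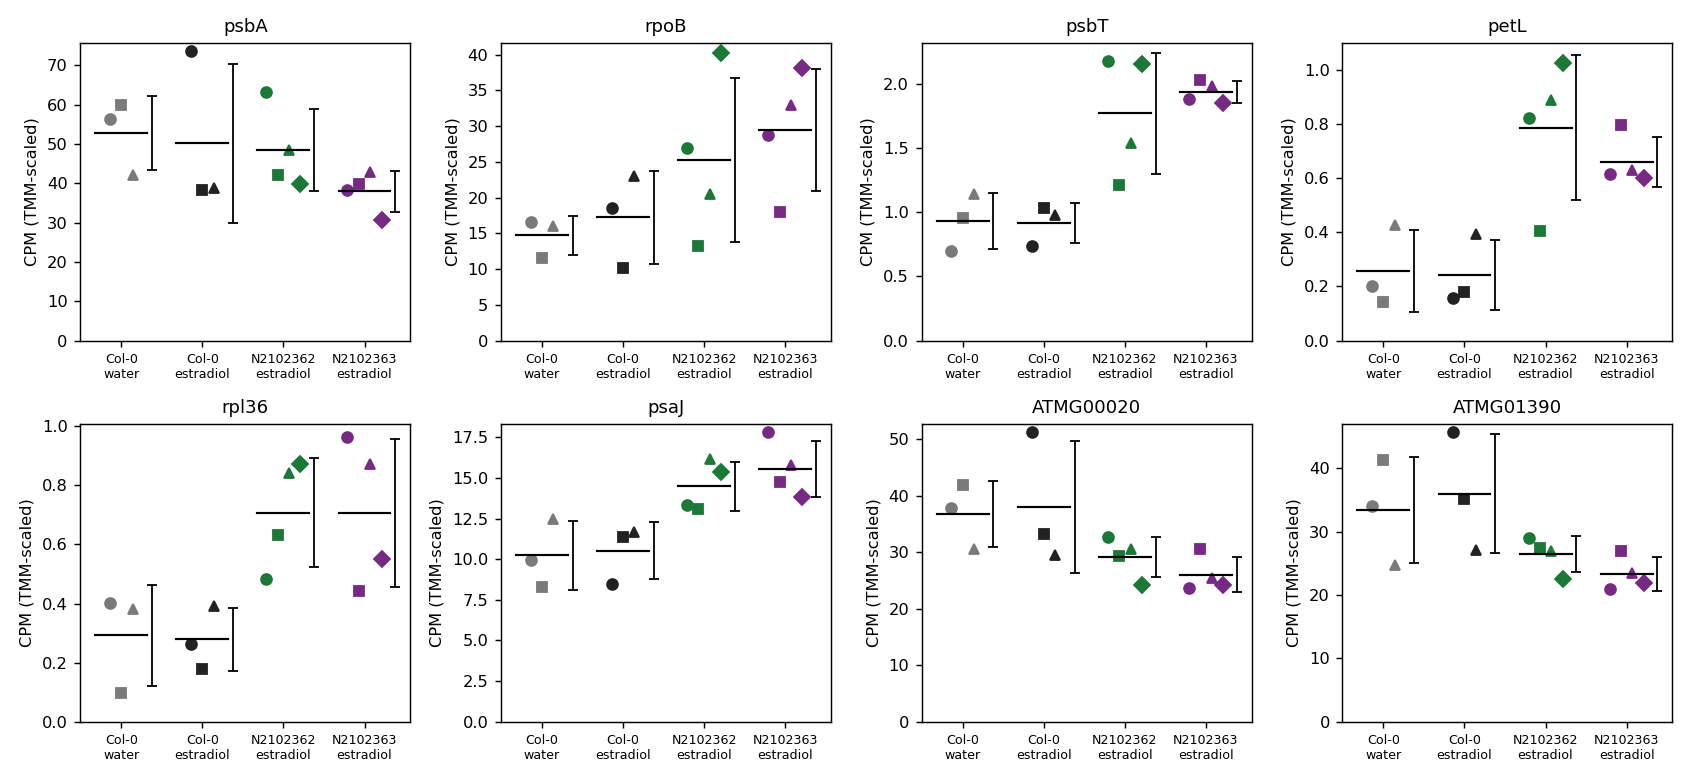
CPM, scaled by TMM factors, of 8 organelle genes in each of the 14 libraries by group. Points are libraries with a marker for each replicate number (circle 1, square 2, triangle 3, diamond 4), lines are group means and bars are 1 SD. psbT, rpl36 and psaJ have every line library above the Col-0 estradiol libraries, rpoB is highest at 40.2 and 38.1 CPM in the libraries numbered 4, and psbA and both mitochondrial genes have their highest value, 73.6, 51.3 and 45.7 CPM, in replicate 1 of Col-0 estradiol.

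No mitochondrial gene passed the test in the lines, and their medians lay below 0. The median log2 fold change was -0.02 in N2102362, -0.24 in N2102363 and -0.15 in the mean of the lines, and 12, 5 and 8 of 28 were above 0. The median for the mean of the lines was -0.04 without replicate 2 of Col-0 estradiol, -0.08 without replicate 3 of N2102363, -0.26 without replicate 2 of N2102363, -0.09 without replicate 4 of both lines and -0.05 with a replicate block (12 of 28 above 0). At an unadjusted p under 0.05, 1, 3 and 3 genes were lower (2.07%, 5.88% and 4.75% of all genes) and 0 were higher in each comparison. Groups did not overlap, with the line lower, for ATMG01200 in N2102362 (1 gene, against 2.4% of all genes) and for ATMG01390 in N2102363 (1 gene, against 5.26%). Without replicate 2 of N2102363 the count at an unadjusted p for the mean of the lines was 5 (5.61% of all genes). Without replicate 1 or 2 of Col-0 estradiol it was 2 (1.95% and 4.91%). ATMG01390 had 45.7, 35.1 and 27.2 CPM in Col-0 estradiol and 34.1, 41.3 and 24.7 in Col-0 water. It had 29.1, 27.4, 26.9 and 22.5 CPM in N2102362 and 20.997, 27.0, 23.5 and 21.9 in N2102363. Replicate 3 of Col-0 estradiol lay inside the range of N2102362 and just above N2102363, and the log2 fold change in the mean of the lines was -0.53 ± 0.16 (SE, edgeR adjusted p = 0.53). Without replicate 1 of Col-0 estradiol it was -0.33.

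ATMG00020 had 51.3, 33.2 and 29.6 CPM in Col-0 estradiol, 32.7, 29.3, 30.6 and 24.3 in N2102362 and 23.8, 30.5, 25.4 and 24.3 in N2102363. The groups overlapped and the log2 fold change was -0.46 ± 0.16 (SE, edgeR adjusted p = 0.53). Without replicate 1 of Col-0 estradiol it was -0.19. ATMG01200 had the value farthest below 0, -0.83 ± 0.37 on 129 counts, followed by ATMG01120 at -0.63 ± 0.47, ATMG00070 at -0.62 ± 0.29 and ATMG01380 at -0.57 ± 0.49. Without replicate 2 of Col-0 estradiol ATMG00070 was at -0.41. ATMG01360 stood at -0.42 ± 0.36 (-0.71 without replicate 2 of N2102363), ATMG01080 at -0.07 ± 0.37, ATMG00030 at -0.06 ± 0.15 and ATMG01220, with 52 counts, at 0.51 ± 0.68. The genes noted as ATPase subunit 6-1 (ATMG00410) and cytochrome c oxidase subunit 3 (ATMG00730) stood at 0.13 ± 0.43 and -0.11 ± 0.36.

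These differences are relative to the nuclear transcripts that set the library scale. Each genome's own summed count was also used as library size. The median in the mean of the lines was then 0.08 over the chloroplast genes, with 46 of 75 above 0. Over the mitochondrial genes it was 0.23, with 19 of 28 above 0. The most abundant genes weigh most in this scale, as ATMG00020 and ATMG01390 do for mitochondria, and others stand higher where those fall. Genes on both sides of 0 therefore follow from the scale itself, and a shift of the whole genome cannot be seen on it. On that scale psbT stood at 0.73, petL at 1.28, rpl36 at 1.09 and rpoB at 0.41, while psbA stood at -0.44 and rbcL at -0.21. ATMG00020 and ATMG01390 stood at -0.05 and -0.12. Still 0 genes of either genome passed. At an unadjusted p under 0.05, 5 chloroplast genes were higher in N2102362 (2.56% of all genes), 17 in N2102363 (5.12%) and 15 in the mean of the lines (4.46%). On this scale chloroplast genes were also lower: 0 in N2102362 (2.07%), 4 in N2102363 (5.89%) and 4 in the mean of the lines (4.75%), the 4 being psbA, psbD, psbZ and atpH both times. Of the mitochondrial genes, 0 were lower and 2, 2 and 1 were higher, ATMG00030 in each, with ATMG00110 in N2102362 and ATMG00650 in N2102363. The class medians moved down with the scale, to 0.44 over the polymerase genes, 0.29 over the ribosomal protein genes (13 of 16 above 0), 0.11 over the ATP synthase and 0.07 over the NADH dehydrogenase-like complex. They lay below 0 over photosystem II, at -0.09 with 5 of 15 above 0, photosystem I, at -0.05, and cytochrome b6f, at -0.03.

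Between the lines, N2102363 against N2102362, edgeR and DESeq2 called 0 chloroplast and 0 mitochondrial genes (0.00489% of all genes by edgeR). At an unadjusted p under 0.05, 0 members of either genome were higher or lower, where 0.993% of all genes were higher and 1.4% lower. Across all genes, same-numbered libraries of the lines deviated together, so the block is given as well. Over the organelle genes their correlations were -0.0067, 0.639, 0.182 and 0.383 for replicates 1 to 4. With the block, 2 chloroplast genes were higher (ndhK and rps19, 3.12% of all genes) and 3 mitochondrial genes lower (ATMG00080, ATMG00090 and ATMG01170, 3.38%), with 0 in the other directions. Without replicate 4 of N2102362 and with no block, 6 chloroplast genes were higher (3.14%) and 2 mitochondrial genes lower (3.47%). Without replicate 2 of N2102362, 3 chloroplast genes were lower (0.595%), and without replicate 2 of N2102363 1 chloroplast and 3 mitochondrial genes were (1.4%). Between libraries of the same number, the mitochondrial share was lower in N2102363 in 4 of 4 pairs, with a difference of only -8.6e-05 percentage points in replicate 4, and the chloroplast share was lower in 2 of 4. The median log2 fold change was 0.05 over the chloroplast genes, with 42 of 75 above 0 (47.7% of all genes), and -0.18 over the mitochondrial genes, with 6 of 28 above 0. ndhK was higher and trnR lower in every N2102363 library than in every N2102362 library, 1 gene in each direction (1.33% of those tested, against 1.09% of all genes higher and 1.01% lower).

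The libraries numbered 4 exist for the lines only, and they were set against replicates 1 to 3 of the same lines. Of all genes, 12.4% were called by edgeR in this comparison, but 0 of 70 chloroplast and 0 of 22 mitochondrial genes. The lowest edgeR adjusted p was 0.055 among the chloroplast genes and 0.075 among the mitochondrial genes, close to the threshold of 0.05. At an unadjusted p under 0.05, 7 chloroplast genes were higher (14.7% of all genes), among them rps2, rps4, rpl16, rpl22, rpoB and ycf1, and 2 were lower, psbA and ndhC (14.9%). Groups did not overlap, with replicate 4 higher, in 12 chloroplast genes (16.3%). The chloroplast median was 0.16 with 47 of 70 above 0 (48.2%), and the mitochondrial median -0.29. Among the nuclear genes for organelle expression, SIG1, SIG2, SIG3 and SIG4, of 6 sigma factor genes, were called higher in replicate 4, with log2 fold changes of 0.50 ± 0.10, 0.52 ± 0.11, 0.31 ± 0.08 and 0.33 ± 0.09 and edgeR adjusted p = 0.018, 0.021, 0.037 and 0.044. CSP41A and CSP41B, which bind and stabilise chloroplast RNA, rose by 0.74 ± 0.17 and 0.98 ± 0.16 (edgeR adjusted p = 0.026 and 0.011). GUN4 and GUN5, which serve chlorophyll synthesis, rose by 0.88 ± 0.13 and 0.94 ± 0.18 (edgeR adjusted p = 0.0089 and 0.015). FSD2 and PTAC7, of 12 genes for proteins bound to the chloroplast polymerase, rose by 0.79 ± 0.16 and 0.56 ± 0.13 (edgeR adjusted p = 0.019 and 0.026), as did UPOX of the mitochondrial dysfunction list by 0.43 ± 0.12 (edgeR adjusted p = 0.047). No gene of these lists was called lower, but the 3 phage-type polymerase genes all stood below 0, with RPOTm at -0.41 ± 0.13, RPOTmp at -0.54 ± 0.20 and RPOTp at -0.29 ± 0.17 (edgeR adjusted p = 0.073, 0.12 and 0.28). The RNase J gene, of RNA turnover, stood at -0.46 ± 0.14 and NDB2, a mitochondrial NAD(P)H dehydrogenase gene, at -0.48 ± 0.17 (edgeR adjusted p = 0.057 and 0.097). The line is the same on both sides of this comparison. No Col-0 library carries the number 4, so the libraries numbered 4 enter the line side alone when lines are set against Col-0, and their part in the values of rpoB and its neighbours was not tested beyond leaving them out.

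The nuclear genes that make or process organelle RNA did not pass the test in any comparison of lines or estradiol. Few of all 20449 tested genes passed: 0.0293% for N2102362, 0.0245% for N2102363, 0.0342% for their mean, 0.00489% between the lines and 0.0% for estradiol. With passing genes so rare, 0 in a short list does not set its genes apart from others. In the mean of the lines 0 of 6 sigma factor genes, 0 of 3 phage-type polymerase genes, 0 of 12 genes for proteins bound to the chloroplast polymerase, 0 of 6 genes of RNA turnover and stability and 0 of 5 editing factor genes were called by edgeR. The medians of these lists were 0.24, -0.19, 0.11, 0.09 and -0.10, against -0.0041 over all genes. RPOTp, the phage-type polymerase of the chloroplast, had 78.5 ± 17.8 CPM in Col-0 estradiol, 71.3 ± 15.1 in N2102362 and 66.1 ± 10.4 in N2102363 (SD), and a log2 fold change of -0.19 ± 0.17 (SE, edgeR adjusted p = 0.66). RPOTm and RPOTmp, which serve mitochondria or both organelles, stood at -0.10 ± 0.15 and -0.34 ± 0.22. SIG1 and SIG2 stood at 0.33 ± 0.16 and 0.31 ± 0.17, and SIG5, a sigma factor of light and stress responses, at 0.30 ± 0.26. Genes that respond to mitochondrial dysfunction and genes of plastid signalling had medians of -0.06 (7 genes) and 0.15 (5 genes). Of these 0 were called, against 0.0342% over all genes.

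Upstream letters of the bacterial-type promoter were searched for as a description. The exact letters TTGACA occurred on the gene strand within the 250 bases before 8 of 75 tested chloroplast genes (10.7%) and TATAAT before 16 (21.3%), with both before 3. Over every window of this length in the chloroplast genome and on both strands, 5.59% held TTGACA, 15.1% held TATAAT and 0.985% held both. None of the 4 polymerase genes had either set of letters in its window, and of the 19 photosystem genes 1 had TTGACA and 4 had TATAAT. Neighbouring genes share windows, and an exact match is a count of letters only.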

How the data were processed

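Raw gene counts of 14 libraries were used as deposited; per the submitters' processing notes the authors used FastQC, TopHat2, SAMtools and HTSeq with the TAIR10 genome, and settings, versions and strand mode are not given in the sources used here. Per the labels, libraries were made with the TruSeq RNA kit v2. Counts were tested with edgeR 4.0.16 in R 4.3.3 (quasi-likelihood, TMM factors, 20449 genes with a summed count of at least 50, group means over all 14 libraries, 10 residual degrees of freedom, Benjamini-Hochberg adjustment over all genes, threshold 0.05) after the fit was tested on simulated data; DESeq2 1.42.0 was an alternative. Log2 fold changes carry model standard errors. P-values measure the spread between pools that the labels call biological replicates.

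The members and lists were chosen with earlier results of these data known, so sums over members have no p-value, and planned tests and a correlation of the shares are not reported. Named genes were those with the 8 highest levels per genome, the 4 largest fold changes per genome, lists by function, the genes whose groups did not overlap, and a few picked after their values were seen, such as rpl33, cemA and the ribosomal protein cluster. Chloroplast IDs were matched to the RefSeq chloroplast genome by coordinates (123 of 133 with the same start and end, 7 sharing 1 end). The mitochondrial sequence of the reference is of another build and was not used for coordinates. Copies were found with blastn 2.17.0+ (at least 95% identity, alternatively 98%).

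For N2102363 against Col-0 estradiol every same-numbered correlation across all genes was over 0.1, the mark used here (0.154, 0.137 and 0.104). The same held between the lines (0.366, 0.379, 0.194 and 0.697). It did not hold for every pair of Col-0 water against estradiol (0.477, 0.262 and 0.065) or N2102362 against Col-0 estradiol (0.160, 0.603 and -0.112). The mark is a choice, since 0.477 and 0.603 belong to comparisons that missed it. Replicate 3 of Col-0 estradiol and replicate 4 of N2102363, which differ in number, stood at 0.133. The highest value of unlike numbers was 0.224 between the lines, for replicate 2 of N2102362 and replicate 1 of N2102363. For Col-0 estradiol and N2102362 it was 0.313, for replicates 2 and 3. Other pairs of unlike number lay below 0. The alternatives were other filters, scalings, references and tools, a replicate block, and each library left out. Results for some genes are not reported here.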

Additional observations from a re-analysis of the deposited data

Results flagged for a closer look

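In groups of 4 libraries, the highest or lowest was marked where its gap to the next took up more of the range than Dixon's 95% critical value allows. Chance marks about 1 in 20 separate groups, and 7 of 90 were marked here. The 90 are not separate, since class sums hold the named genes and rbcL enters both alone and as its class. Some named genes were also picked by their values. The 7 of 90 can therefore not be set against 1 in 20. In N2102363, replicate 2 stood high in the summed level of the tested mitochondrial genes at 86.9 CPM, in ATMG01360 at 2.92 CPM, in ATMG00070 at 0.752 CPM, in ndhA at 1.68 CPM and in petL at 0.796 CPM. In N2102362, replicate 1 stood high in ccsA at 0.484 CPM and replicate 4 in ndhG at 0.616 CPM.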

How the results depend on the processing

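No organelle gene was called by edgeR in the 5 comparisons of the groups under any planned setting (other filters, RLE or nuclear-only scaling, each genome's total as library size, DESeq2, the compared groups alone, a replicate block, or each library left out, where counts of calls ran from 0 to 0). With both Col-0 groups as reference, chosen after seeing the data, the count for the mean of the lines was 2 chloroplast genes, and 10 with a replicate block as well. The block changed no other call, and moved the chloroplast genes higher at an unadjusted p under 0.05 from 20 to 26, while the share of all genes went from 4.48% to 5.8%. With each genome's total as library size that count was 15 (4.46% of all genes), with 4 lower (4.75%), and in N2102362 it was 5 (2.56%). The mitochondrial genes then went from 3 lower and 0 higher to 0 lower and 1 higher in the mean of the lines. With the block, edgeR had 14 chloroplast genes higher in N2102362 (3.45% of all genes) and 25 in N2102363 (7.57%), at the same unadjusted threshold.

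Leaving out libraries in turn, the difference of chloroplast shares in percentage points ran from -0.00026 to 0.0033 for estradiol, 0.0046 to 0.0101 for N2102362, 0.0039 to 0.0075 for N2102363, 0.0043 to 0.0081 for their mean and -0.0039 to 0.0014 between the lines. Mitochondrial differences ran from -0.00061 to 0.0013, -0.0028 to -0.0010, -0.0040 to -0.0022, -0.0034 to -0.0016 and -0.0019 to -0.00077. These counts at an unadjusted p, with libraries left out, ran from 7 to 27 in N2102362, 6 to 28 in N2102363 and 6 to 31 in their mean for chloroplast genes higher, and from 2 to 5 for mitochondrial genes lower in the mean.

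Some uncalled fold changes in the mean of the lines crossed 0, and the cause was not tested. With the genome total as library size, psaA stood at -0.13, atpB at -0.019, rbcL at -0.21, clpP at -0.078, ATMG00030 at 0.34 and ATMG01080 at 0.27. With a replicate block, psbC stood at 0.016, ATMG00030 at 0.014 and ATMG01080 at 0.076. Without replicate 4 of both lines they stood at 0.000696, 0.00256 and 0.085. With both Col-0 groups, psbD stood at 0.065; with the block added, psbD at 0.13, psbC at 0.00185, ATMG00030 at 0.016 and ATMG01080 at 0.061; without replicate 4, psbD at 0.12, ATMG00030 at 0.00520 and ATMG01080 at 0.10. With single libraries left out, psbA ran from -0.39 to 0.16, psbC from -0.21 to 0.16, psaA from -0.042 to 0.31, rbcL from -0.20 to 0.32, ATMG00030 from -0.19 to 0.067 and ATMG01080 from -0.32 to 0.26. Of 31 genes followed through these settings, 18 moved by over 1.5 times or crossed 0 without some single library, most often replicate 2 of Col-0 estradiol (13 genes).

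Organelle genes held few counts, between 5551 and 9143 per library for the chloroplast and 1313 and 2402 for mitochondria, so differences in genes with under 200 counts in all were weakly resolved.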
